A study of Danio rerio with 16 samples.

Results

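Poly(A) sites of the zebrafish, Danio rerio, were compared between adults and embryos at 24 hours post fertilization (hpf). The sites were mapped by 3P-Seq, an assay that captures polyadenylated 3′ ends and locates the base after which a poly(A) tail was added. A site was a cluster of tag 3′ ends on 1 strand, in which the position with the most tags absorbed the positions within 10 nt. Sites with at least 20 tags over the adult and the 24 hpf libraries, outside the mitochondrial genome, entered the comparison. They numbered 25646 of the 90940 clusters that held at least 4 tags over all 3 libraries of this assay. Of them, 12909 lay on the plus strand, 12737 on the minus strand and 410 on unplaced scaffolds. Sites on either side of the tag minimum were alike in this: the 672 sites with exactly 20 tags had medians of 10 tags in each library, and the 721 clusters left out with 19 tags had medians of 10 at 24 hpf and 9 in the adult.

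The animals were wild type, labelled wt, and were raised in standard conditions with no treatment compared. The 24 hpf library came from whole embryos and the adult library from whole adults of mixed gender, and the labels give no strain, adult age or number of animals. A library of whole wild-type embryos at 72 hpf entered the clustering but not the comparison, and its levels are given as a measurement outside the contrast. Each stage had 1 library, so no difference here has a replicate check and no p-value is given. The deposited files name no gene and no annotation on their genome build was used here, so the stage labels could not be set against marker genes and every site is given by its position.

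A poly(A) site is made when the cleavage machinery cuts a nascent transcript a short distance after a signal such as the poly(A) signal hexamer, and poly(A) polymerase then extends the new 3′ end. Many genes carry several such sites. The choice of an upstream site shortens the 3′ untranslated region, which holds binding sites for microRNAs and RNA-binding proteins, and a site inside an intron changes the coding end as well. Tags at a site therefore follow both how much of a gene's RNA is present and which of its ends is used. An adult contains mature gonads, liver, gut and immune tissue that an embryo at 24 hpf lacks or has only as primordia, while such an embryo contains short-lived tissues such as the hatching gland, and its neural and muscle tissue is still forming. In whole animals, fewer cells of a type and less RNA per cell cannot be told apart.

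The 24 hpf library held 7423152 tags in 235580 distinct intervals, the 72 hpf library 9813481 tags in 319885 and the adult library 7470435 tags in 517701. The embryo libraries thus had more tags per distinct interval. The mean over intervals standing alone was 3.74, 3.52 and 1.23 tags in this order of libraries, and 15.1%, 14.6% and 53.0% of all intervals had 1 tag. Tags copied from the same molecule are not independent, so the intervals given below cover counting error only and are too narrow, most of all for the embryos. Levels are tags per 1000000 tags of the library (CPM), and 1 library without tags at a site could still hold up to 3 tags' worth, which is 0.404 CPM at 24 hpf, 0.402 in the adult and 0.306 at 72 hpf. The sites compared carried 94.4% of all tags of the 24 hpf library, 93.5% of the adult and 90.5% of the 72 hpf library.

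A site was called higher or lower in the adult when the ratio of the 2 levels was at least 4-fold and its exact conditional Clopper-Pearson 95% interval excluded 2-fold. By this rule 6083 sites were called higher in the adult, 23.7% of those tested, and 5187 were called lower, 20.2%. The other 14376 sites, 56.1%, were not called. The median log2 ratio of adult over 24 hpf was -0.04, with quartiles of -1.73 and 1.98, so the distribution was wide and centred near 0. Only 7739 sites, 30.2%, had levels within 2-fold of each other. At the far ends, 423 sites were at least 100-fold higher in the adult and 129 at least 100-fold lower, where a site without tags in a library was set to the floor of 3 tags. The median fold among called sites was 11.2 for the higher and 9.43 for the lower.

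These counts depend on whether tags or distinct intervals are counted. With distinct intervals counted in place of tags, only 296 of the 6083 higher sites and 825 of the 5187 lower sites were called the same way. A site called higher had a median of 12 distinct intervals in the adult and 1 at 24 hpf. A site called lower had 7 at 24 hpf and 3 in the adult. These counts were scaled by the library's sum of distinct intervals, 235580 at 24 hpf and 517701 in the adult. Why calls were lost was not tested. The direction by distinct intervals was the same for 5324 of the higher sites, 87.5%, and for 5157 of the lower ones, 99.4%. With ratios from tags but counting intervals widened to the estimated number of molecules, 3891 higher sites, 64.0%, and 4509 lower sites, 86.9%, kept their call. That estimate rests on the mean of intervals standing alone, 3.74 tags at 24 hpf and 1.23 in the adult. Higher sites held 12.6 tags per interval at 24 hpf and 40.7 in the adult, and lower sites 58.0 and 8.61. Whether these means hold at such sites was not tested.

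**Figure D1:**
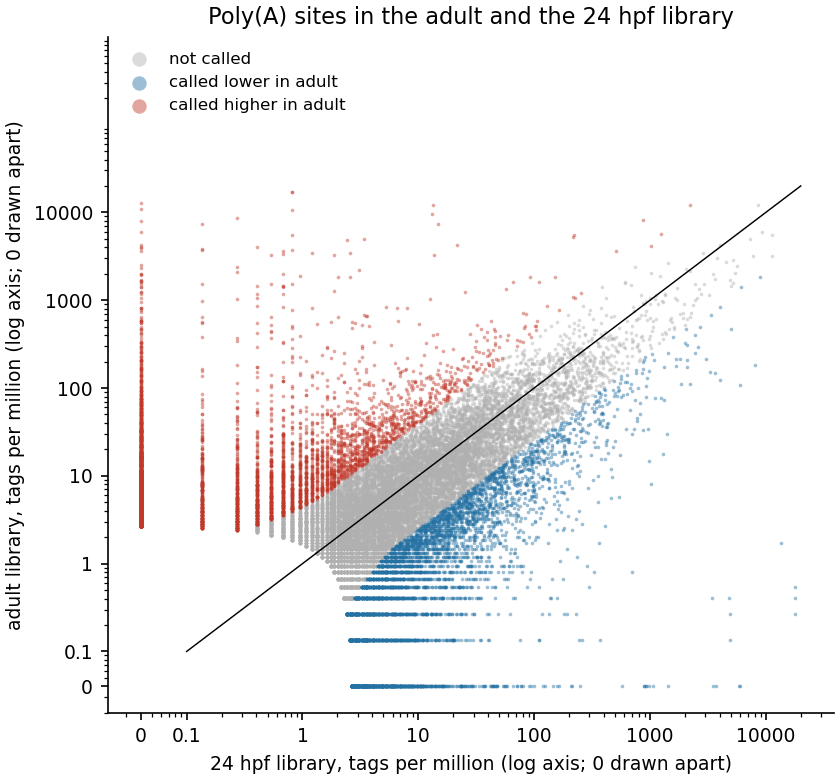
Level of each of the 25646 poly(A) sites in the 24 hpf library (x axis) and in the adult library (y axis), in CPM on log axes with 0 drawn apart and the line of equal levels in black. Each point is a site, coloured by its call; the 6083 sites called higher in the adult include a column of sites without tags at 24 hpf, and the 5187 called lower include a row without tags in the adult.

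The called sites split the tags of the 2 libraries unevenly. The call by ratio fixes the direction of this split, so the shares only describe how many tags these sites held. Sites called higher held 48.8% of the adult tags (95% exact binomial interval 48.8 to 48.9) but 1.81% of the 24 hpf tags (1.80 to 1.82). Sites called lower held 38.7% of the 24 hpf tags (38.7 to 38.7) and 3.16% of the adult tags. The sites not called held 53.9% and 41.5%. In the library where they were low, many called sites had no tag at all: 2959 of the higher sites had none at 24 hpf and 854 of the lower sites had none in the adult.

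The share called varied with how abundant a site was. Among the 9682 sites with 20 to fewer than 50 tags over both libraries, 27.5% were called higher and 20.1% lower. Among the 5200 sites with 200 to fewer than 1000 tags these shares were 17.6% and 19.2%. The 201 sites with at least 10000 tags again leaned to the adult, with 70 higher, or 34.8%, and 43 lower, or 21.4%. Both libraries were dominated by few sites to about the same extent. The 10 leading sites held 12.4% of the 24 hpf tags and 12.3% of the adult tags, and 50% of the tags lay in 269 and 246 sites. Those leading sites were largely not shared. Of the 100 most abundant sites at 24 hpf, 45 were called lower in the adult, 1 higher and 54 neither. Of the 100 most abundant in the adult, 68 were higher, 2 lower and 30 neither, with 26 sites in both lists. Each list was picked by tags that also enter the call, so a lean toward its own library is built in. Over all sites 23.7% were called higher and 20.2% lower.

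The strongest sites at 24 hpf lay on the minus strand of chromosome 12. The site at 17701282 fell from 133019 tags at 24 hpf to 4 in the adult (17919.5 to 0.535 CPM), with 9249 tags (942 CPM) at 72 hpf, and was 33467-fold lower in the adult (13070.5 to 122830). The sites at 17962598 and 17784892 fell from 132740 and 132444 tags to 3 and 2, with 9175 and 9263 at 72 hpf. At 24 hpf these 3 sites were near-equal, with a like pattern of tags across their intervals. The pattern was not compared at 72 hpf, and the adult had too few tags for it. Whether the same tags were placed at all 3 sites was not tested. Next came the minus-strand site at 5980626 on chromosome 19, which kept its level at 72 hpf: with 100175 tags at 24 hpf and 120387 at 72 hpf it had only 13 in the adult, and was 7755-fold lower in the adult than at 24 hpf (4535 to 14565). The fifth, at 34340610 on the minus strand of chromosome 1, was strong throughout, with 11280.1, 7236 and 5529 CPM. Its adult level was 2.04-fold lower (2.02 to 2.06), which did not reach the call.

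In the adult the leading sites were a pair on the plus strand of chromosome 20. The site at 54384260 rose from 6 tags at 24 hpf to 127331 in the adult, or 17045 CPM, with 0 at 72 hpf, 21087.5-fold above 24 hpf (9688 to 57463). The site at 54381041, near-equal to it, had 6, 0 and 126903 tags. After these came the minus-strand site at 7210122 on chromosome 4, without a tag in either embryo library and with 96283 tags in the adult, at least 31891-fold higher. All of these were essentially adult ends in these libraries. The fourth, at 33608800 on the minus strand of chromosome 6, was already strong in embryos, with 2221 CPM at 24 hpf and 641 at 72 hpf, against 12255 in the adult. Its 5.52-fold ratio (5.43 to 5.61) was called. By distinct intervals, scaled by the library's sum of them, the log2 ratio was -0.20, the opposite direction. The counts before scaling were 44 at 24 hpf and 84 in the adult. The fifth, at 758922 on the minus strand of chromosome 17, peaked at 72 hpf with 50251 CPM, against 8630 at 24 hpf and 12219 in the adult, a ratio of 1.42 (1.40 to 1.43) that was not called. By scaled distinct intervals it too went the other way, with a log2 ratio of -0.75, from counts of 46 at 24 hpf and 60 in the adult.

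Called sites were ranked by the limit of the 95% interval nearest to 1-fold, with counts of 0 to 2 tags set to 3 and near-equal sites counted once. The leading 8 higher sites included 3 on chromosome 20 and 2 on chromosome 22. Besides the chromosome 4 site and the chromosome 20 pair, they were the following. The plus-strand sites at 26273793 and 26186008 on chromosome 22 had 80580 and 60165 adult tags but no embryo tag. With the floor of 3 tags they were 26690.0-fold and 19928-fold higher (lower 95% limits 21705 and 16206). On chromosome 20, the minus-strand site at 54368478 had 65091 adult tags, 2 at 24 hpf and 0 at 72 hpf, and the plus-strand site at 54390994 had 44769 adult tags and none in the embryos. The minus-strand site at 9777359 on chromosome 24 had 79018 adult tags, 6 at 24 hpf and 0 at 72 hpf. Of these leading sites only the plus-strand one at 28254287 on chromosome 16 was clearly present at 72 hpf, with 1 tag at 24 hpf, then 120, and 54755 in the adult. Its adult level of 7330 CPM was 54408-fold that at 24 hpf (9765 to 2149057), a ratio resting on a single embryo tag.

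By the same ranking, the leading 8 lower sites lay mostly on chromosome 12, with 5 there, 2 on chromosome 22 and 1 on chromosome 19. On the minus strand of chromosome 12, the site at 17941585 had 44189 tags at 24 hpf, 1324 at 72 hpf and no adult tag, at least 14823.5-fold lower in the adult, and the site at 17825928 had 36129, 1114 and 2. On its plus strand, the site at 17586055 had 36308, 1560 and 1 tags, and the site at 18018797 had 26034, 182 and 0. Each of these was already far lower at 72 hpf than at 24 hpf. The plus-strand sites at 14238859 and 14243512 on chromosome 22 followed the same course, with 27817, 2204 and 0 tags and 25677, 2074 and 3 tags. The former was at least 9331-fold lower in the adult, and the latter 8613.5-fold lower (2947 to 41770.5).

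The most abundant sites that were not called showed how far a strong site could move under the rule. After the sites on chromosomes 17 and 1 named above, the minus-strand site at 47909509 on chromosome 8 had 11194 and 10808 CPM in the embryo libraries and 3186 in the adult, 3.51-fold lower (3.46 to 3.56). The minus-strand site at 30398261 on chromosome 20 had 9235, 4910 and 5977 CPM, and the one at 34306761 on chromosome 14 had 7291, 5534 and 5001 CPM. Their adult levels were 1.54-fold (1.53 to 1.56) and 1.46-fold lower (1.44 to 1.48). For all 5 the counting interval was narrow, but it takes no account of copied tags. These sites had 46 to 96 distinct intervals in the 24 hpf and adult libraries. Scaled by the library's sum of distinct intervals, which was larger in the adult, the adult level was 1.68-fold to 2.24-fold lower at all 5. It was 2.06-fold lower on chromosome 8 and 1.68-fold on chromosome 17. The counts before scaling, at 24 hpf and in the adult, were 59 and 63 on chromosome 8 and 46 and 60 on chromosome 17. They were 94 and 96 on chromosome 1, 52 and 61 on chromosome 20, and 53 and 52 on chromosome 14.

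The 72 hpf library did not enter the calls. Sites called higher in the adult had median levels of 0.135, 0.51 and 7.50 CPM from the youngest to the oldest stage, and sites called lower 8.76, 6.32 and 0.803 CPM. The 72 hpf level lay between the other 2 libraries at 4498 of the higher sites, 73.9%, and at 3380 of the lower sites, 65.2%. It lay between them at 3550 of the sites not called, 24.7%, where the 2 levels were closer together by construction. In these counts a level equal to that of either library counted as between. The departures differed in direction. At the higher sites, however, the 24 hpf median of 0.135 CPM lay under the floor of 0.404 CPM. A 72 hpf level below both libraries there often rests on few or no tags. Of the higher sites, 1189 were below both libraries at 72 hpf and 396, or 6.51%, above both, while of the lower sites 349, or 6.73%, were below both and 1458, or 28.1%, above both. Among the higher sites without tags at 24 hpf, 1809 had none at 72 hpf either, and these ties are part of the 4498. Likewise, 201 of the 3380 lower sites had no tag at 72 hpf or in the adult. Summed over sites, the higher ones held 7.43% of the 72 hpf tags and the lower ones 22.5%. Thus the embryo at 72 hpf stood nearer to the embryo at 24 hpf than to the adult in both sums.

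**Figure D2:**
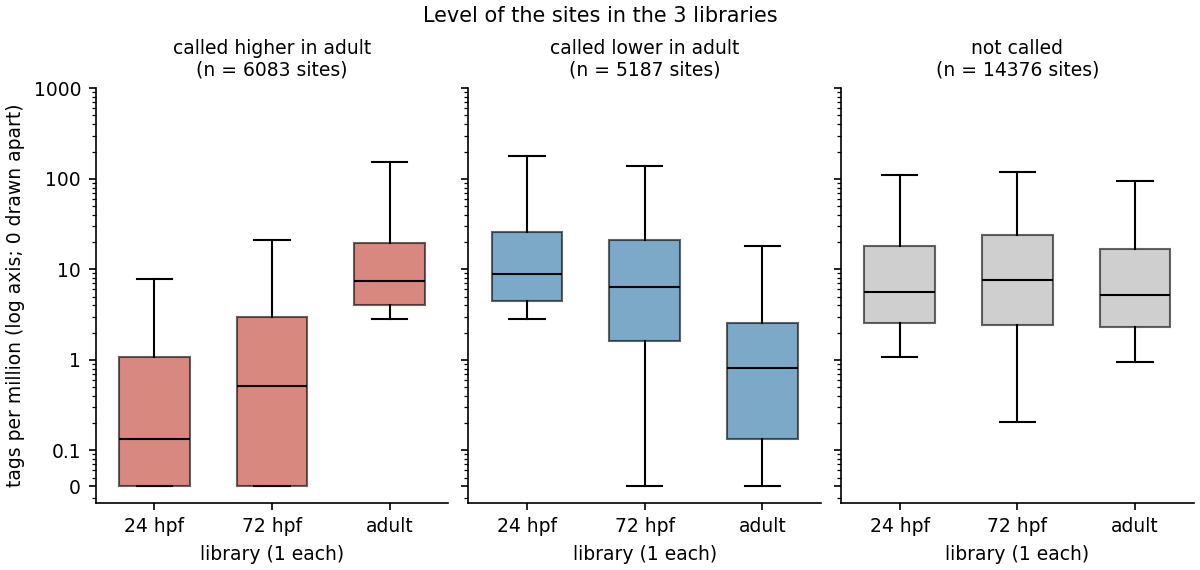
Levels of sites called higher, lower or neither in the 24 hpf, 72 hpf and adult libraries, in CPM on a log axis; boxes span the quartiles with the median marked, and whiskers the 5th to 95th percentiles over sites of 1 library each. Sites called higher had medians of 0.135, 0.51 and 7.50, and sites called lower had medians of 8.76, 6.32 and 0.803.

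Neighbouring sites often shared a call. Consecutive sites of both strands with the same call formed 118 runs of at least 5 higher sites and 71 runs of at least 5 lower sites. The higher runs held 876 sites, 14.4% of all higher sites, but 26.5% of the adult tags, against 0.105% of the 24 hpf tags and 0.201% of the 72 hpf tags. The lower runs held 482 sites, 9.29% of the lower sites, with 13.6% of the 24 hpf tags, 4.13% of the 72 hpf tags and 0.143% of the adult tags. Median spans were 70.5 kb for the higher and 77.7 kb for the lower, and 54 and 32 of them lay on 1 strand only. The summed 72 hpf level lay between the other 2 libraries in 88 of the higher runs and below both in 29, and between them in 50 of the lower runs and above both in 20. Equal levels counted as between here too, as in higher runs without a tag in either embryo library. Runs rest on tags: by distinct intervals no higher run and 7 lower runs were left, and from estimated molecules 44 and 50. Only 296 sites were called higher by distinct intervals, too few to show whether the higher runs held.

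The longest higher run covered 36 sites over 235 kb of chromosome 22, from 26091710 to 26327079, 33 of them on the plus strand. All its sites together held 211782 adult tags, against 1 at 24 hpf and 2 at 72 hpf, a 210442-fold ratio to 24 hpf (37770 to 8312036). Of the adult tags, 98.1% came from 6 sites of at least 100 CPM. The strongest, at 26273793, carried 38.05%, followed by 26186008, then 26293584 with 29835 tags, 26305309 with 29424, the minus-strand site 26091766 with 4577 and 26215755 with 3181. None of these 6 had a tag in either embryo library. A second run lay at lower coordinates on the same chromosome, from 25203632 to 25426392, with 18 sites, all on the minus strand. It rose from 3.50 CPM at 24 hpf and 0 at 72 hpf to 14440.5 CPM in the adult, 4123-fold (2814 to 6312), and its strongest sites, 25203632 and 25342161, had 41136 and 31937 adult tags. Several sites of a run could lie close together: 8 of these 18 and 6 of the 36 stood within 25 nt of another site of their strand, and whether such sites are separate ends was not tested. By distinct intervals 5 of these 18 and 8 of the 36 were called higher.

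The other long higher runs differed in composition. On chromosome 4, 21 sites over 377 kb from 60770677 to 61147431 went from 41.4 CPM at 24 hpf and 27.2 at 72 hpf to 4407 in the adult, 107-fold (95.2 to 120). Its 6 strongest sites, all on the minus strand between 61123939 and 61147431, each had 4369 to 6131 adult tags and none at 72 hpf, and 5 of them were near-equal to another. On chromosome 24, 16 sites over 372.5 kb from 9777359 to 10149879 went from 11.2 and 28.5 CPM to 19443 CPM in the adult, 1739-fold (1403 to 2183), and the first site carried 54.4% of the adult tags. The chromosome 8 run was the weakest and the most spread, with 19 sites over 1746 kb from 35879001 to 37625063 and 0.404, 40.05 and 609.6 CPM, 1508-fold (516 to 7317). Its 72 hpf sum stood well above 24 hpf, with 393 tags against 3, but 17 of its 19 sites had no tag at 72 hpf. The sum of the chromosome 24 run rose less, with 280 tags against 83, and 11 of its 16 sites had none at 72 hpf. In both runs the strongest adult site was among those without a 72 hpf tag. Of the sites within these runs, 10 of 21 on chromosome 4, 2 of 16 on chromosome 24 and none on chromosome 8 stood within 25 nt of another. By distinct intervals 5 of 21, 7 of 16 and 1 of 19 sites were called higher on chromosomes 4, 24 and 8.

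The run with the largest adult sum, shown because it holds the 2 leading adult sites, was chosen after its values were seen. It had 15 sites within 22.5 kb of chromosome 20, from 54368478 to 54391011. It went from 14 tags (1.89 CPM) at 24 hpf and 0 at 72 hpf to 365179 (48883 CPM) in the adult, 25919-fold (15448 to 47410). Of these adult tags 99.7% lay at 4 sites, the near-equal pair, 54368478 and 54390994, and 10 of the 15 sites stood within 25 nt of another. By distinct intervals 5 of the 15 were called higher.

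The longest lower run covered 35 sites over 433 kb of chromosome 12, from 17586055 to 18018797, 29 of them on the minus strand. It went from 655433 tags (88296 CPM) at 24 hpf through 34921 (3558 CPM) at 72 hpf to 18 (2.41 CPM) in the adult, 36645-fold lower in the adult (23186.5 to 61831). The 14 sites of at least 100 CPM carried 99.5% of its 24 hpf tags, and 9 of them were near-equal to another, in groups of 3 or 2. The repeat was visible in the values: besides the trio named above, 17758538 and 17941585 had 43934 and 44189 tags at 24 hpf, 17825928 and 18005763 had 36129 and 35932, and 17809767 and 17986367 had 6797 and 6865. By distinct intervals 30 of its 35 sites were called, but with breaks, since no lower run was then longer than 12 sites. Within 25 nt of another site stood 8 of the 35.

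The other long lower runs split by their 72 hpf level. On chromosome 3, 17 sites over 31.9 kb from 55966544 to 55998438 held 14771 tags at 24 hpf and 38395 at 72 hpf but none in the adult, at least 4955-fold lower than 24 hpf. Its leading plus-strand site at 55983728 had 7932, 27654 and 0 tags. By distinct intervals 14 of these 17 sites were called, and 4 stood within 25 nt of another. On chromosome 25, 11 sites over 265 kb from 32131931 to 32397201 likewise had their highest sum at 72 hpf, with 247, 970 and 10.8 CPM, and were 22.8-fold lower in the adult than at 24 hpf (18.3 to 28.9). On chromosome 16, 11 sites within 26.0 kb from 48968122 to 48994142 instead had a lower sum at each later stage, with 2078, 154 and 71.3 CPM, 29.1-fold lower in the adult (26.7 to 31.8). On chromosome 23, 11 sites within 45.1 kb from 21739068 to 21784129 had 499.7, 168 and 8.70 CPM, 57.4-fold lower (44.9 to 74.6). By distinct intervals 6, 5 and 8 of the 11 sites were called lower on chromosomes 25, 16 and 23.

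**Figure D3:**
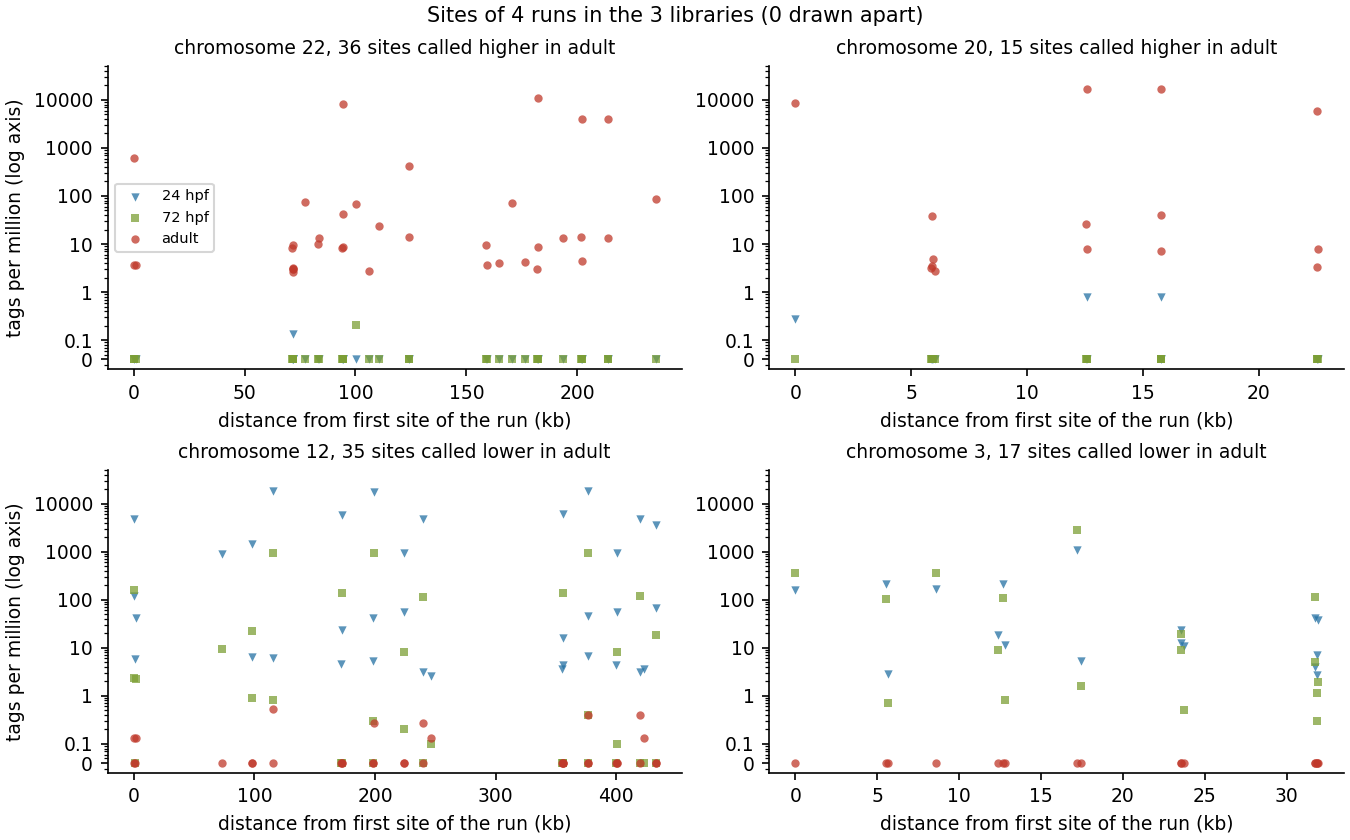
Levels of the sites of 4 runs against the distance in kb from the first site, in CPM on a log axis with 0 drawn apart, for the 24 hpf, 72 hpf and adult libraries. The 36 sites on chromosome 22 and the 15 on chromosome 20 were at or near 0 in both embryo libraries, the 35 sites on chromosome 12 were highest at 24 hpf, and the strongest site of the 17 on chromosome 3 was highest at 72 hpf, with none in the adult.

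Chromosomes differed in their calls and in their share of tags. The share of sites called higher ranged over the 25 chromosomes from 19.8% on chromosome 23 to 29.9% on chromosome 24, with 29.2% on chromosome 22. Outside runs, which leave out called sites by construction, 21.4% of all sites were called higher, and the share was 24.3% on chromosome 24 and 19.2% on chromosome 22. Chromosome 12 held 10.8% of the 24 hpf tags and 2.14% of the adult tags, but 1.94% and 1.68% outside runs. Chromosome 22 held 3.06% and 8.06%, against 2.191% and 1.601% outside runs, and chromosome 20 held 4.49% and 10.98%, against 4.47% and 3.44%. Outside runs the adult share was thus the lower one on all 3, also on chromosomes 20 and 22, where the whole chromosome had more in the adult. Since runs were picked by the same ratio, this only locates the tags.

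A site's call varied with its place among its neighbours on the same strand, a grouping added after the data were seen. Sites of a strand were linked when gaps were at most 5000 nt, which cannot tell the ends of a single gene from those of adjacent genes. The 11363 sites standing alone were called higher in 23.9% of cases and lower in 19.4%, close to the shares over all sites. The first sites of 5473 groups were higher in 32.5% and lower in 15.3%, the 3337 middle sites in 21.4% and 23.0%, and the last sites in 15.9% and 25.3%. The order from the first site to the last thus went from more higher calls to more lower calls. Median log2 ratios of adult over 24 hpf followed it, 0.75 for first, -0.25 for middle and -0.72 for last sites. The shares of tags did not follow it. First sites held 21.3% at 24 hpf and 16.5% in the adult, middle sites 20.55% and 24.0%, and last sites 23.6% and 22.5%. First and last sites also differed in abundance, with medians of 62 and 79 tags over both libraries. By distinct intervals the median log2 ratio was -0.14 for first and -0.72 for last sites. Few sites were then called higher, 1.26% of first and 1.35% of last sites. The difference was -0.09 percentage points against 16.7 by tags, and so few calls cannot show whether the order held.

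**Figure D4:**
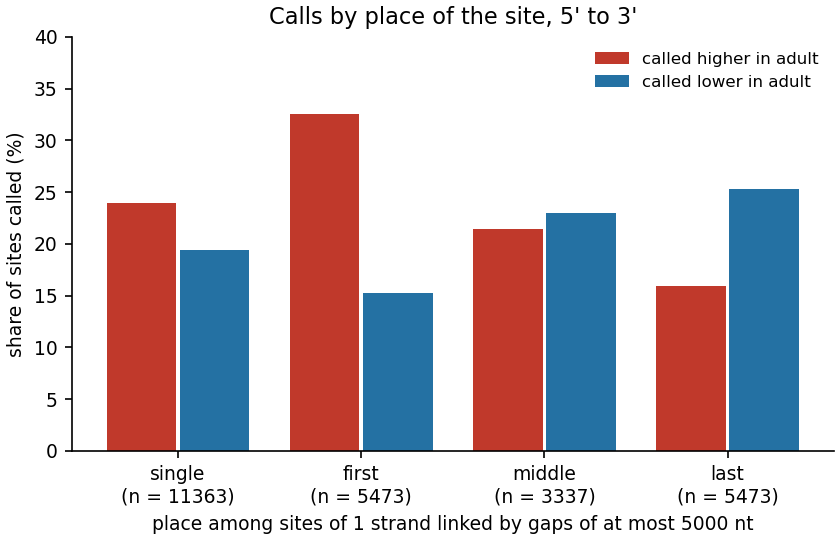
Percent of poly(A) sites called higher or lower in the adult among sites standing alone and among the first, middle and last sites of groups linked by gaps of at most 5000 nt on a strand; bars start at 0 and carry no error bars, since there is 1 library per stage. First sites were higher in 32.5% and lower in 15.3%, and last sites were higher in 15.9% and lower in 25.3%.

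Pairs of neighbouring sites on a strand, 50 to 5000 nt apart, numbered 6686. Both were called in 1754 pairs, and in most of these the call was the same, with 825 pairs higher at both sites and 735 lower at both. In 194 pairs, 11.1% of those with both called, the sites went opposite ways. The adult-higher site was the upstream one in 156 of these, 80.4%, and the downstream one in 38. Over all 6686 pairs, the upstream site was called higher in 29.7% and lower in 18.0%. The downstream site was called higher in 16.6% and lower in 25.5%. Opposite pairs thus leaned the same way as all pairs, and how much of the 80.4% these shares account for was not tested. Opposite calls were more frequent at longer distances. They made up 4.13% of pairs with both called at 50 to fewer than 200 nt, 8.79% at 200 to fewer than 1000 nt and 24.9% at 1000 to 5000 nt, and the upstream site was the adult-higher one in 23 of 29, 47 of 53 and 86 of 112. The median distance was 1236 nt where the upstream site was higher and 2752 nt where the downstream site was. None of the 194 was called oppositely by distinct intervals, and 95 pairs were called oppositely from estimated molecules. With only 296 sites called higher by distinct intervals, those calls cannot show whether the opposite pairs held.

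In the 156 pairs with the upstream site higher in the adult, the median share of the pair's tags at the downstream site was 98.4% and 97.1% in the embryo libraries and 13.2% in the adult. In the other 38 it was 1.77%, 13.5% and 94.0%. The opposite calls fix the direction of this change from 24 hpf to the adult, so these 2 shares only describe its size. The 72 hpf share lay between the other 2 libraries in 107 of 154 and in 26 of 35 pairs with tags in that library. The 72 hpf embryo was thus nearer to the 24 hpf embryo in its medians, more so for the former kind of pair.

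**Figure D5:**
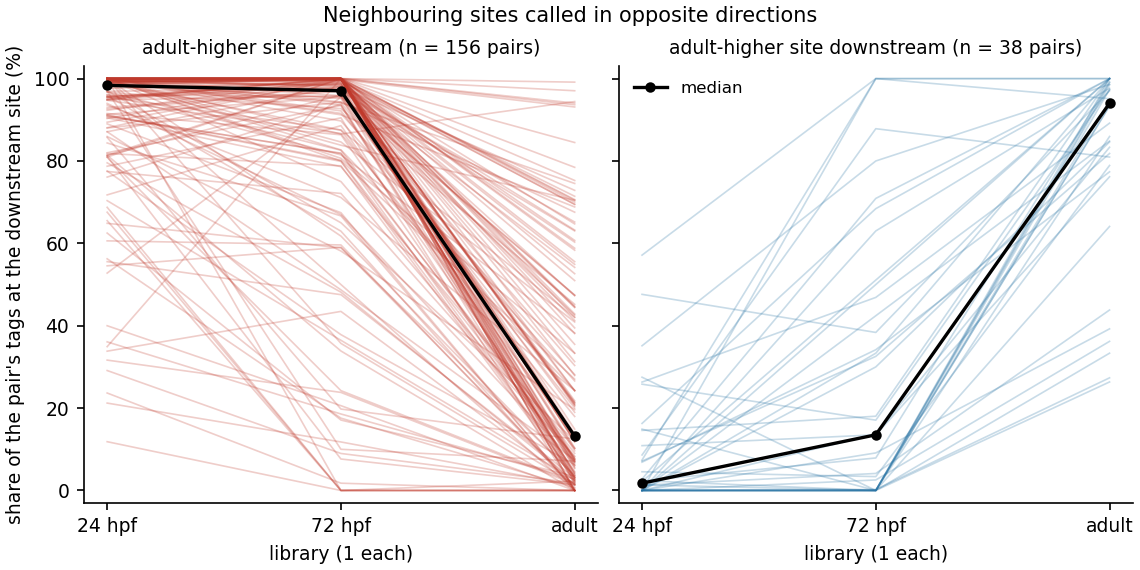
Share of a pair's tags at its downstream site, in percent, in the 24 hpf, 72 hpf and adult libraries for the neighbouring sites called in opposite directions; each line is a pair and black points are medians over pairs. Medians went from 98.4% through 97.1% to 13.2% in the 156 pairs with the adult-higher site upstream, and from 1.77% through 13.5% to 94.0% in the other 38. The calls fix the direction between 24 hpf and the adult.

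The 5 opposite pairs ranked highest by the smaller of 2 counts, the adult tags of the adult-higher site and the 24 hpf tags of the adult-lower site, showed both orders. On the plus strand of chromosome 4, the sites 5403608 and 5407050 lay 3442 nt apart. The upstream site had 594 tags at 24 hpf, 35 at 72 hpf and 17 adult tags, and the downstream site 14, 3 and 1952. The downstream site also opened a run of 5 higher plus-strand sites up to 5413459. Whether both sites of the pair belong to 1 gene was not tested. The downstream share went from 2.30% (exact 95% interval 1.26 to 3.83) to 99.1% (98.6 to 99.5), through 7.89% at 72 hpf. On the plus strand of chromosome 23, the sites 28631191 and 28631402 lay only 211 nt apart. There the upstream site had 14, 22 and 333 tags and the downstream site 1238, 1500 and 267, so the downstream share went from 98.9% (98.1 to 99.4) to 44.5% (40.5 to 48.6). The minus-strand pair at 37554655 and 37553274 on chromosome 3, 1381 nt apart, moved alike. Its upstream site had 34, 139 and 274 tags, and its downstream share was 96.7% and 92.7% in the embryo libraries and 45.2% (40.8 to 49.7) in the adult.

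The remaining 2 of these pairs also moved toward the upstream site. On the plus strand of chromosome 10, the sites 27727780 and 27728530 had downstream shares of 89.4%, 99.6% and 21.8%, with 29, 1 and 212 tags upstream and 245, 247 and 59 downstream. On the plus strand of chromosome 2, the upstream site 33667846 led in every library, with 776, 704 and 3419 tags against 209, 94 and 44 at 33668480, and the downstream share went from 21.2% through 11.8% to 1.27%. In this last pair no site replaced the other as the stronger.

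The exact cleavage position was not used by the comparison and was compared over the 10796 sites with 20 tags or more in both. The strongest position was the same base at 24 hpf and in the adult in 9362 of them, 86.7% (86.1 to 87.4). The adult position lay upstream in 545, 5.05%, and downstream in 889, 8.23%, and it was more than 3 nt away in 872, 8.08%. Among 3934 sites with 100 tags or more in both libraries, 91.0% (90.1 to 91.9) shared the position. The share was similar in the 3 classes of call: the strongest position was shared by 86.4% of 796 sites called higher, 88.7% of 1273 called lower and 86.5% of 8727 not called. Tags at these sites were concentrated on few bases, within the window that the clustering allows. The strongest position held a median of 80.5% of a site's tags at 24 hpf (quartiles 61.3 and 95.2) and 78.3% in the adult (59.3 and 92.6), over a median of 3 and 4 positions. The larger number of distinct intervals in the adult library stands beside this difference, and its part in it was not tested. With distinct intervals counted in place of tags, the strongest position held a median of 55.6% at 24 hpf and 42.9% in the adult.

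The clustering limits how far a position can move within a site, and over these 10796 sites the distances ran from 16 nt upstream to 16 nt downstream, with 4 above 10 nt. Among the 3934 sites with 100 tags or more in both libraries, the largest distance was 10 nt, which 5 sites had. At the plus-strand site 5038782 on chromosome 25, that base held 83.0% of the 24 hpf tags, and 5038792 held 61.8% of the adult tags. At 72 hpf the former base still led, with 60.3% against 33.2%. At the plus-strand site 21551783 on chromosome 10, 106 of the 212 tags at 24 hpf lay at 21551773 and 61.2% of the adult tags at 21551783. Both moved downstream in the adult. The minus-strand site 70402313 on chromosome 7 did so too, from 70402323 with 78.5% at 24 hpf to 70402313 with 51.7% in the adult, as did the minus-strand site 24484264 on chromosome 21, from 61.2% at that base to 47.0% at 24484254 in the adult. The minus-strand site 47334784 on chromosome 1 moved the other way, with 43.3% at that base at 24 hpf and 43.9% at 47334794 in the adult.

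Sites of opposite strands that lay within 100 nt of each other, the ends of transcripts running toward each other, formed 419 pairs. Both were higher in the adult in 14 and both lower in 17, and the calls were opposite in 22. Neither site was called in 184 pairs, and only 1 of the sites in the rest. Over all sites 23.7% were called higher and 20.2% lower, and these counts are given as a description.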

How the data were processed

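Each deposited file lists intervals with a strand and a whole-number count per interval, taken here as tags, since no label or header says what the number is. Bowtie and the Zv9 (danRer7) build are named in the submitters' processing notes. A display offset of 1 was added, per the file headers. Which Bowtie version was run, how tags were trimmed and how multiple matches were filtered is not given in the sources used here. Deposited counts were not normalised as far as the values show.

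The 3′ end was the end of a plus-strand interval and the start of a minus-strand one. Ends of the 3 libraries were clustered per strand, absorbing positions within 10 nt of the strongest, and clusters with at least 4 tags were kept. Positions are 1-based danRer7 coordinates. CPM was the tag count times 1000000 over the library sum. With 1 library per stage no test was made, and ratios have exact conditional Clopper-Pearson 95% intervals. A library without tags was set to 3 tags, and such a fold is given with the limit of its 95% interval nearest to 1-fold. Near-equal sites had at least 1000 tags, totals within 1.1 times and a chi-square per degree of freedom under 1.6 over their intervals. Molecules were estimated as tags divided by the mean tags of intervals standing alone.

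The sites named were the 5 with the most tags in each library, the 8 higher and 8 lower with the largest limit of the 95% interval nearest to 1-fold (counts of 0 to 2 tags set to 3), the 5 most abundant not called, the 5 opposite pairs with the most tags in the smaller of the 2 counts that define them, the 5 longest runs of each direction and the 5 largest moves of position where both libraries had 100 tags or more. The sites, this rule and the lists were chosen with earlier results of these data known. Alternatives changed the clustering, tag minimum, scaling, call rule, depth, the unit counted and near-equal sites. The planned count of poly(A) signals around the sites and the marker gene lists were not used, since no genome or annotation of this build was used here. The other 13 of the 16 samples were not analysed here. The ratio, its interval and the call were checked on simulated counts without copied tags, and the clustering on well separated simulated sites. The other steps were not checked in this way. All steps used Python 3.11.15, numpy 2.4.6, pandas 2.3.3, scipy 1.17.1 and matplotlib 3.10.9.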

Additional observations from a re-analysis of the deposited data

Results flagged for a closer look

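The comparison used sites with at least 20 tags over the adult and 24 hpf libraries, and left aside signal at 72 hpf elsewhere. Of the 64179 clusters outside the comparison, 4795 had at least 20 tags at 72 hpf, above the 3 tags that a count of 0 allows. They held 252148 tags, 2.57% of the 72 hpf library, with a median of 33 tags. The strongest, on the minus strand of chromosome 10 at 23048767, had 2338 tags (238 CPM) there, against 19 at 24 hpf and 0 in the adult.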

How the results depend on the processing

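No paired analysis was possible because each stage has 1 library. The 6083 higher and 5187 lower calls became 2118 and 2143 with at least 100 tags per site, 3827 and 2481 at 8-fold, and 296 and 834 by distinct intervals. Lower calls became 8803 at 2-fold, and higher calls 3891 from estimated molecules. The other alternatives gave 5848 to 8656 higher and 4303 to 6916 lower calls. The share of adult tags at higher sites (48.8%) was 48.97% with a 24 nt window, 48.95% with single linkage, 49.2% and 46.6% with at least 10 and 100 tags, 50.5% with median-ratio scaling, 49.7% without mitochondrial tags, 56.2% and 41.6% at 2-fold and 8-fold, 2.47% by distinct intervals and 46.3% with 1 of each near-equal group. The share of 24 hpf tags at lower sites (38.7%) was 39.0% and 37.0% with at least 10 and 100 tags, 33.5% with median-ratio scaling, 39.9% without mitochondrial tags, 62.0% and 26.1% at 2-fold and 8-fold, 5.17% by distinct intervals and 33.8% with 1 of each near-equal group. The median log2 ratio (-0.04) was -0.12 and -0.17 with at least 10 and 100 tags, -0.46 by distinct intervals and, reversed, 0.27 with median-ratio scaling, which shifts all log2 ratios by 0.30. The share with the same strongest position (86.7%) was 91.0% with at least 100 tags, 75.8% by distinct intervals and 85.5% with a 24 nt window. The median share at the strongest position was 55.6% by distinct intervals and 78.0% with 24 nt at 24 hpf, and 80.0%, 42.9% and 75.6% with at least 100 tags, by distinct intervals and with 24 nt in the adult. The 194 opposite pairs became 82 within 1000 nt, 46 at 8-fold, 0 by distinct intervals and 95 from estimated molecules; the share with the upstream site higher stayed at 76.1 to 85.4% where pairs were left. The 118 higher and 71 lower runs became 57 and 23 at 8-fold and 0 and 7 by distinct intervals, and the higher ones 44 from estimated molecules. First minus last sites called higher (16.7 points) was 18.6 with 24 nt, 12.9 with gaps of 1000 nt, 9.88 from estimated molecules, 10.4 at 8-fold and 14.3 with at least 100 tags. By distinct intervals it was -0.091, of opposite sign, but only 1.26% of first and 1.35% of last sites were then called higher. A site holds few distinct intervals, and they were scaled by a larger sum in the adult than at 24 hpf. The part of either in the lower counts was not tested. Of 75 values for the 25 sites named by level or fold, 73 kept their direction and 2 reversed by distinct intervals, to -0.20 on chromosome 6 at 33608800 and to -0.75 on chromosome 17 at 758922, which was not called. These sites were picked by the same tags, so the kept directions are no independent support. Many had log2 ratios far beyond the 0.30 shift of median-ratio scaling, which could not reverse them.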
